A study of Mus musculus with 2 samples.

Results

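The cells described here were the cycling liver sinusoidal endothelial cells of a Gimap5 sph/+ mouse, heterozygous for the sphinx allele. They were 160 of the 12097 barcodes of sinusoidal type in that library, or 1.32% (95% exact Clopper-Pearson interval 1.05 to 1.64), and 160 of 29522 barcodes deposited for the whole series. These 160 barcodes stand for 82 cells, because nearly every cell is in the matrix under 2 barcodes. The members were chosen by their own counts: a barcode needed at least 3 unique molecular identifiers (UMIs, 1 per captured transcript molecule) summed over Mki67, Top2a, Cenpf and Birc5, at least 1 over Pecam1 and Cdh5, and at least 2 over Clec4g and Stab2. Each also had to have at least 500 detected genes and 1000 UMIs, with at most 15% of UMIs from mitochondrially encoded genes. They are described against the 11751 non-cycling sinusoidal barcodes of the same library (5985 cells), which had at least 2 UMIs of Clec4g and Stab2 and 0 of the selection transcripts. Since the rule used these counts, the values below describe the chosen cells, and none of them tests a difference.

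Barcodes of both libraries carry a suffix, 1 or 2, and the 2 sets repeat each other. In the sph/+ library 6391 of the 6409 barcode sequences with suffix 1 (99.7%) also occur among the 6727 with suffix 2, which makes 6745 distinct sequences. The UMI total with suffix 2 was a median of 1.04 times that with suffix 1 (5th to 95th percentile 1.02 to 1.07). Over 200 such pairs, the log counts of a pair correlated across genes with a median r of 0.82, against 0.56 for barcodes of different sequence. Counts of a pair differed by less than the sampling noise, with a variance of the difference 0.46 times that of independent counting. Each distinct sequence is therefore counted as 1 cell, the sources used here do not say why there are 2 sets, and levels are sums over both. Of the 82 member cells 78 met the rule with both barcodes and 4 with 1, whose partner had 2 selection UMIs. Below, a member is a barcode and a cell is a distinct sequence. All intervals were computed on the counts divided by the 2 sets. With either set alone there were 80 members, and 708 and 688 genes were at least 2-fold higher and 209 and 219 lower.

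The study profiled single liver endothelial cells of 1 adult Gimap5 sph/+ mouse and 1 adult Gimap5 sph/sph mouse, both C57BL/6. The cells had been sorted as negative for the viability dye DAPI and for CD45, the leukocyte surface marker, and positive for CD31, the product of Pecam1. The droplet libraries were made with the 10x Genomics 3' kit v3, and each mouse is 1 sample. Sphinx is a missense allele of Gimap5, a GTPase of immune cells and endothelium, and the sph/+ mouse carries 1 mutant and 1 normal copy. No wild-type mouse was analysed here. With 1 mouse per genotype there is no replicate, so intervals cover counting error only and a difference between libraries cannot be told apart from one between genotypes.

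Sinusoidal endothelial cells line the fenestrated capillaries of the liver. They take up waste from blood through scavenger receptors such as the stabilins, and they send WNT, BMP and HGF signals to hepatocytes. Those near the portal vein and those near the central vein express different genes. In the resting adult liver they divide rarely. A dividing cell loads helicases at replication origins, copies its DNA with a set of fork proteins whose genes are driven by E2F factors, and then turns on a later set for the spindle, the kinetochore and cytokinesis. The late set is held off in resting cells by the DREAM complex and turned on by B-MYB and FOXM1, which act with NF-Y at CCAAT boxes and at the cell cycle homology region (CHR).

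The promoters of the 4 selection genes are shown because these transcripts defined the cells, and those of Ube2c and Mcm6 because they stand for the late and the replication genes that were high in them. Each runs from 250 bases before to 50 bases after the start of the gene, 5′ to 3′, in the RefSeq annotation of GRCm38.p6. Capitals mark matches, read on either strand, to CCAAT boxes, to the CHR core TTTGAA, and to 3 E2F-type strings, namely TTCCCGC, the string TTGGCGC and the string TTTCGCGC. Overlapping matches were counted each. They lie at chr7:135716330-135716629 (minus strand) for Mki67, which encodes a protein coating mitotic chromosomes, at chr11:99024140-99024439 (minus) for Top2a, the topoisomerase that untangles DNA, at chr1:189688037-189688336 (minus) for Cenpf, a kinetochore protein, and at chr11:117848987-117849286 (plus) for Birc5, the survivin subunit of the chromosomal passenger complex. Those of Ube2c, the ubiquitin-conjugating enzyme of the anaphase-promoting complex, and Mcm6, a subunit of the replicative helicase, lie at chr2:164769679-164769978 (plus) and chr1:128359656-128359955 (minus).
Mki67: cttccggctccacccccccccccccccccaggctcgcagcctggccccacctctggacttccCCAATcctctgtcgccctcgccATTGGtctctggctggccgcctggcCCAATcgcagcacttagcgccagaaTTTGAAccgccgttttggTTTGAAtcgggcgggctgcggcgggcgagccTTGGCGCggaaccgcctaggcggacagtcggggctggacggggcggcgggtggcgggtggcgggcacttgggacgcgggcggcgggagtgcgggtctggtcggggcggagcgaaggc
Top2a: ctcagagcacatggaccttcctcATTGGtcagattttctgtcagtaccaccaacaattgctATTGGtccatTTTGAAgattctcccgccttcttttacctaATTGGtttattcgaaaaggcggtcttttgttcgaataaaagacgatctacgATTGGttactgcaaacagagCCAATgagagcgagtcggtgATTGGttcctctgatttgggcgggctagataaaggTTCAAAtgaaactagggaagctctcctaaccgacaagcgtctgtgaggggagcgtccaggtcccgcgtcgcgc
Cenpf: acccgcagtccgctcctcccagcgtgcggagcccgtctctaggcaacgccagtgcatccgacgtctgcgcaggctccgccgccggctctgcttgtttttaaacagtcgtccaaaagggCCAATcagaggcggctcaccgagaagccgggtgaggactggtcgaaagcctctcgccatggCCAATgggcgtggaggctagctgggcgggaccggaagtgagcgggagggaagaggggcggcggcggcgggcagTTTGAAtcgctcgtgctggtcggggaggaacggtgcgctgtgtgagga
Birc5: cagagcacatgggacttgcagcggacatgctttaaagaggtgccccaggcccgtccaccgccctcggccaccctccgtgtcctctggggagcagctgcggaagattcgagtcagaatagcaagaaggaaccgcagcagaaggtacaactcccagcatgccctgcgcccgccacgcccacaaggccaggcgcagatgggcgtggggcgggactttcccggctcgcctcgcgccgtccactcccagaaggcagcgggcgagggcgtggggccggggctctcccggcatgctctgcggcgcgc
Ube2c: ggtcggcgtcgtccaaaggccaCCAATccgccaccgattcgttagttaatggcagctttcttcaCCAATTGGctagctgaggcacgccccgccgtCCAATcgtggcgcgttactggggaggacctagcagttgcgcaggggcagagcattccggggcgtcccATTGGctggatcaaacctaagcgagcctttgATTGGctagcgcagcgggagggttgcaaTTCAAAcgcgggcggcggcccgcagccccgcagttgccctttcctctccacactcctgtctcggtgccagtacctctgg
Mcm6: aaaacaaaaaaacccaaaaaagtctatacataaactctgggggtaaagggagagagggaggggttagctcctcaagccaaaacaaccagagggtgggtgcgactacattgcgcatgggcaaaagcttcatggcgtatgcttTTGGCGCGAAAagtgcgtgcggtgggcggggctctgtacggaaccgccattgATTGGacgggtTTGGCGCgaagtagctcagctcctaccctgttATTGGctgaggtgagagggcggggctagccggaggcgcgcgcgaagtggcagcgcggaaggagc
The Mki67 promoter held 3 CCAAT boxes, 2 CHR cores and 1 E2F-type string. The Top2a promoter held 6 CCAAT boxes and 2 CHR cores, that of Cenpf 2 and 1, and that of Ube2c 6 and 1, with 0 E2F-type strings in each of these. Mcm6 had 3 E2F-type strings, 2 CCAAT boxes and 0 CHR cores. The Birc5 window held none of these letters.

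Matches were counted over the lists of genes described below. Promoters in the RefSeq table matched 52 of the 63 genes in the mitosis lists and 37 of the 46 in the replication lists. A CHR core was present in 67.3% of the promoters of mitosis genes and in 16.2% of those of replication genes, beside 18.1% of all 27025 promoters and 11.9% of the 5956 promoters of measured genes. E2F-type strings went the other way, with 11.5% of mitosis and 54.1% of replication promoters, beside 7.18% of all promoters and 14.4% of those of measured genes. A CCAAT box was present in 69.2% of mitosis, 59.5% of replication and 37.9% of all promoters. A CCAAT box together with a CHR core was found in 51.9% of mitosis promoters, 8.11% of replication promoters and 7.12% of all promoters. A match describes the letters of the window and does not show that a factor binds there.

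**Figure D1:**
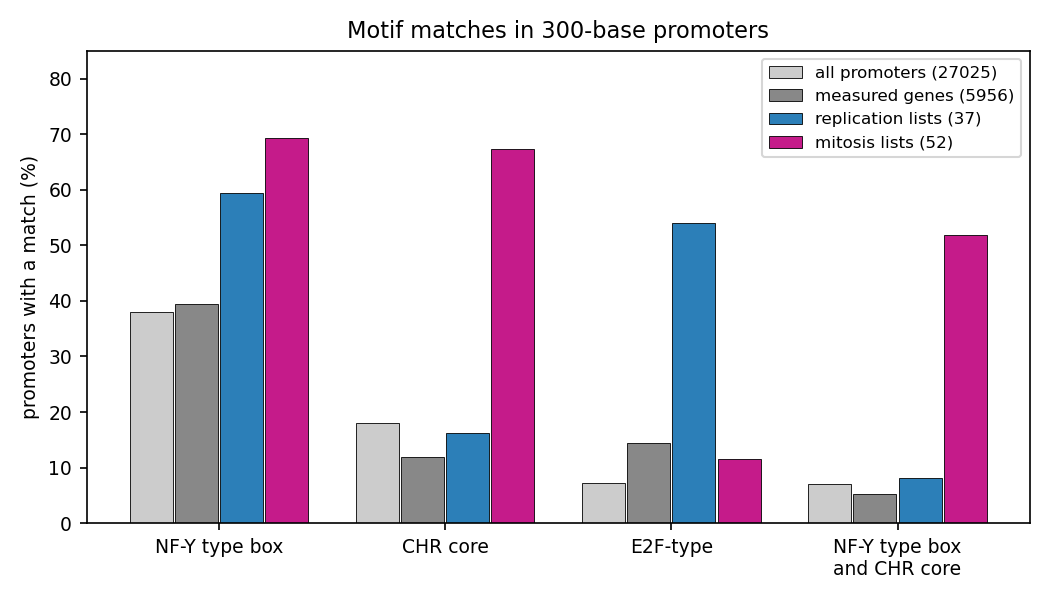
Share of promoters with at least 1 match, in percent, for 3 kinds of motif and for the pair of NF-Y type (CCAAT) box and CHR core. Bars stand for all 27025 promoters, the 5956 of measured genes, the 37 of replication genes and the 52 of mitosis genes; the CHR core is most frequent in mitosis promoters and the E2F-type strings in replication promoters.

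The selection transcripts were abundant in most members. Their sum ran from 3 to 112 UMIs per barcode, with a median of 36 and quartiles of 14.8 and 58.3. Mki67 had a median of 11 UMIs per barcode and a highest value of 40, Top2a 11 and 35, Cenpf 8 and 43, and Birc5 4 and 23. Of the 160 members 156 had a UMI of Mki67 (80 of the 82 cells), 143 of Cenpf (75 cells), 141 of Top2a (74) and 139 of Birc5 (72). All 4 transcripts were found together in 118 members from 62 cells, at least 3 in 141 members, and no member rested on 1 transcript alone. Levels per 1000000 UMIs (CPM) over the members were 1345 for Mki67, 1179 for Cenpf, 1164 for Top2a and 509 for Birc5. The limit that 0 UMIs allow (3 UMIs) was set against 29456686.5 UMIs, the mean of the 2 sets of non-cycling barcodes. The 4 levels were then at least 13210-, 11572-, 11433- and 4997.5-fold higher, as the rule made them.

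The threshold of 3 UMIs fell in a sparse range. Among sinusoidal-type barcodes 163 (137 cells) had 1 selection UMI, 23 (21 cells) had 2, and 5 members had exactly 3, whereas 128 members (80%) had 10 or more. In barcodes with 1 selection UMI the kinetochore genes summed to 1.46 UMIs per 10000, close to the 1.23 of the non-cycling cells, and in those with 2 to 2.96. Members with 3 to 5 UMIs had 8.92, those with 6 to 10 had 11.9, and those with over 10 had 35.1. Replication fork genes, as pooled sums, stood at 4.15 in non-cycling cells, 6.58 with 1 UMI and 13.9 with 2. They stood at 16.6 with 3 to 5 and at 26.8 with 6 to 10 and with over 10. The sums with 1 or 2 do not describe the typical barcode. Licensing and fork genes together had a median of 4 UMIs per barcode with 1 and with 2 selection UMIs (highest 79 and 84). The median was 3 in non-cycling barcodes, which were shallower, at a median of 4523 UMIs against 5521 and 5808.

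Members had more UMIs than the other sinusoidal cells. They had a median of 8806 UMIs (1734 to 29489) and 3543 detected genes, the non-cycling cells 4523 UMIs (1000 to 29508) and 2177 genes. The share of mitochondrial UMIs was a median of 5.09% in members and 5.71% in non-cycling cells. After each barcode was thinned to 2000 UMIs, the medians were 1290 genes in 158 members and 1214 in 11363 non-cycling barcodes. A transcript with equal UMIs per barcode in both groups therefore has a lower CPM in members, and UMIs per barcode are given beside CPM below where this matters. Against 4410 non-cycling barcodes within the members' 10th to 90th percentile of depth, 700 genes were at least 2-fold higher and 178 lower, beside 690 and 188 against all of them. The 4410 had a median of 6018.5 UMIs, so they shared the depth range of members but were still shallower. Scrublet scores placed 27 members (16.9%) and 1270 non-cycling barcodes (10.8%) among the likely doublets. Its automatic threshold marked 0 barcodes, so the highest scores at the expected rate were used. Without the marked barcodes 767 genes were at least 2-fold higher and 279 lower. Scored on the first barcode set alone, at the rate for its number of barcodes, 8 of the 82 member cells (9.76%) and 5.38% of the non-cycling cells were marked, and without them 715 genes were higher and 216 lower.

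The sinusoidal label was checked against 26 identity genes present in the matrix, of which 24 were measured. The rule did not use Maf, a transcription factor of sinusoidal identity, which was detected in all 160 members, or Mrc1, the mannose receptor, detected in 158. Detection alone is a weak check, because free RNA was not removed. Both transcripts were also abundant in non-cycling cells, at 2659 and 1908 CPM. Clec4g, a C-type lectin of this cell type, and Stab2 chose the members, so their counts describe the choice and check nothing. Members and non-cycling barcodes both had a median of 23 UMIs of Clec4g plus Stab2, with quartiles of 15 and 33 in both. The threshold of 2 UMIs for that sum is lax, since 100 of the 189 barcodes that lacked Pecam1 and Cdh5 (52.9%) also met it. At 10 or more UMIs there were 139 members (86.9%, 77.5 to 93.4) and 89.0% of the non-cycling barcodes. Only 2 endothelial barcodes with 3 or more selection UMIs were left out for too little Clec4g and Stab2.

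Markers of other liver cells were low in most members. T and NK cell markers and neutrophil markers were at 0 UMIs in all 160 members, B and plasma cell markers summed to 2 UMIs and pan-leukocyte markers, Ptprc among them, to 15 (0.101 per 10000, against 0.0886 in non-cycling cells). Kupffer cell markers gave 86 UMIs (0.581 per 10000, against 0.459 in non-cycling cells), with at most 27 in a cell. Hepatocyte markers gave 244 UMIs, 1.65 per 10000 against 2.81, and cholangiocyte markers 249, 1.68 per 10000 against 3.26. The same cell, present under both barcodes, held 170 of the hepatocyte UMIs and 233 of the cholangiocyte UMIs, 178 of these from Spp1. Stellate cell and fibroblast markers gave 173 UMIs, at most 13 in a cell. Erythroid markers gave 36 and dendritic cell markers 21. Leaving out barcodes with 2 or more UMIs of any such list (10 for hepatocytes) kept 103 members.

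Across the genome 7477 genes were measured, meaning at least 20 CPM in members or non-cycling cells. A gene could therefore enter through the members alone. The log2 ratio was taken after adding 1 CPM to both. In members 690 genes were at least 2-fold higher (9.23% of those measured) and 188 at least 2-fold lower (2.51%), while 5545 were within 1.5-fold. Past 8-fold, 228 genes were higher and 2 lower, and the median log2 ratio over all measured genes was 0.02. Of the 690 higher genes 151 were in the cell cycle lists and 539 were in none of them. The 15 highest outside the selection were Ube2c, Prc1, Pimreg, Hmmr, Ccna2, Ckap2, Pbk, Aspm, Hist1h1b, Nusap1, Kif11, Ccnb2, Cenpe, Ckap2l and Esco2, with log2 ratios from 8.96 down to 7.45. With no floor 1238 genes were higher and 876 lower. Counts of lower genes also depended on other settings: 475 genes were lower in barcodes thinned to 2000 UMIs and 84 with a floor of 50 CPM.

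**Figure D2:**
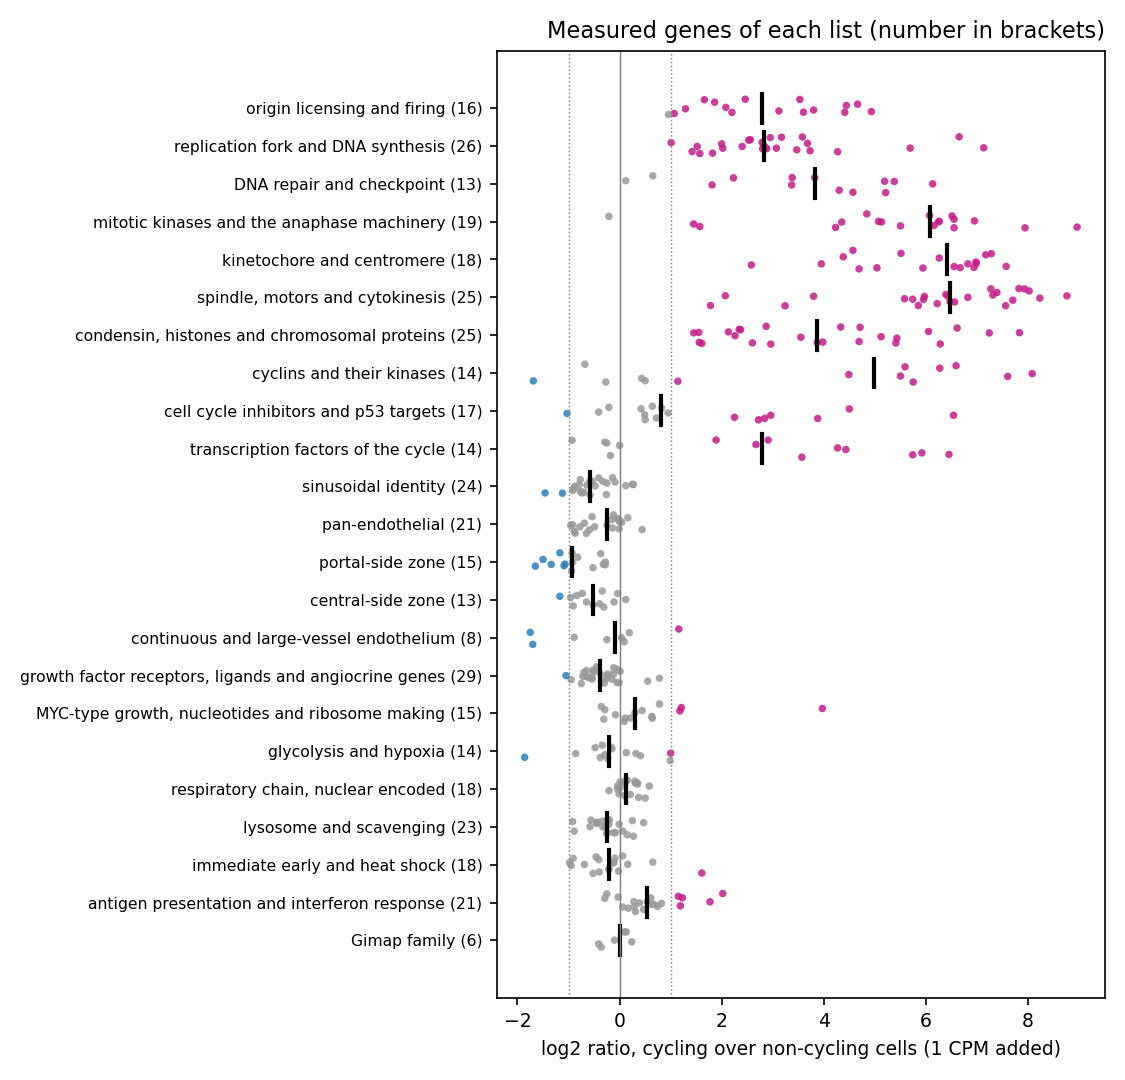
Each point is 1 measured gene, placed by its log2 ratio of cycling over non-cycling cells. Lists are on the vertical axis with the number of measured genes in brackets, the black bar is the list's median, and dotted lines mark 2-fold. Points at least 2-fold higher are pink and at least 2-fold lower blue; the mitosis lists have medians from 6.07 to 6.47, the replication lists 2.79 and 2.83, and the sinusoidal, zonal and growth lists lie below 0.

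Genes of DNA replication were higher in members, by less than the mitosis genes. The rule used transcripts of the late phase, so it bears on this order. Of 20 genes for origin licensing and firing 16 were measured and 15 were past 2-fold, beside 9.23% of all measured genes. Their median log2 ratio was 2.79, beside 0.02 for all genes. All 26 genes of the replication fork and nucleotide supply were past 2-fold higher (median 2.83). Because 12 of the 16 and 19 of the 26 were measured only through their level in members, these counts describe the list and are no support for a difference. The helicase subunits Mcm2 and Mcm6 had moderate ratios, at 54.7 against 14.3 CPM (log2 ratio 1.86) and 77.6 against 23.9 CPM (1.66). The loader Cdc6 and the fork helicase cofactor Cdc45 were nearly absent from non-cycling cells, at 31.1 against 0.272 CPM (4.66) and 55.4 against 0.849 CPM (4.93). Pcna, the sliding clamp, stood at 125 against 30.0 CPM (2.02). Enzymes that make nucleotides differed widely. Tk1, thymidine kinase, was at 196 against 0.407 CPM (7.13) and Rrm2, the S-phase subunit of ribonucleotide reductase, at 155 against 0.560 CPM (6.65). Its partner subunit Rrm1 was at 280 against 32.4 CPM (3.07), and thymidylate synthase, Tyms, at 145 against 10.4 CPM (3.68). Uhrf1, which passes DNA methylation to the new strand, was at 105 against 1.05 CPM (5.69).

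Of 15 DNA repair and checkpoint genes 13 were measured and 11 were past 2-fold higher (median 3.82, beside 9.23% of all measured genes). Since 11 of the 13 were measured only through their level in members, the count is no support for a difference. Brca1, which works in the repair of DNA double-strand breaks, was at 50.6 against 0.390 CPM (5.21). Brip1, a helicase that binds the Brca1 protein, was at 63.5 against 0.764 CPM (5.19). The damage kinase Atm was at 20.9 against 19.2 CPM (0.12), so it did not pass 2-fold.

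The mitosis genes had the largest ratios, which the rule in part fixed. It required selection transcripts of the same late phase in members and 0 of them in non-cycling barcodes. Of 19 measured mitotic kinases and anaphase genes 18 were past 2-fold higher (median 6.07), and so were 18 of 18 kinetochore genes (6.41) and 25 of 25 genes of the spindle and cytokinesis (6.47). Of all measured genes 9.23% were higher. Most of the mitosis genes, 17, 17 and 22, were measured only through the members. Their counts and order describe the choice and are no support for a difference. Spindle genes together made up 97.9 UMIs per 10000 in members and 6.36 in non-cycling cells, kinetochore genes 30.8 and 1.23, and mitotic kinases and anaphase genes 31.2 and 2.23. Ube2c was found in 133 members (68 cells) at 895 CPM and in 0.391% of non-cycling barcodes at 0.798 CPM, a 1122-fold ratio (log2 ratio 8.96 with 1 CPM added). Prc1, which bundles microtubules between the separating chromosomes, was at 662 against 0.526 CPM (8.76). Plk1 and Aurkb, kinases of mitosis, were at 148 against 0.628 CPM (6.51) and 118 against 0.272 CPM (6.55). Cdc20, the activator of the anaphase-promoting complex, was at 281 against 1.27 CPM (6.95), and Cenpe, the kinetochore motor, at 327 against 0.730 CPM (7.57). Pttg1, securin, was the exception, at 79.7 CPM in members and 92.6 CPM in non-cycling cells (-0.21), with a UMI in 35.7% of the latter. For genes nearly absent from non-cycling cells the log2 ratio depends on the CPM added: with 5 CPM in place of 1 it was 7.28 for Ube2c, 6.92 for Prc1, 4.85 for Rrm2 and 4.43 for Ccnb1.

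All 25 genes of condensin, histones and chromosomal proteins were past 2-fold higher (median 3.87), beside 9.23% of all measured genes. Of the 25, 12 were measured only through the members, so the count describes the list alone. The list summed to 134 UMIs per 10000 in members and 20.6 in non-cycling cells. Hmgb2, a DNA-bending protein, was in 158 members at 1798 CPM and in 32.8% of non-cycling barcodes at 88.3 CPM (4.33). H2afz, a histone variant, was at 3209 against 667 CPM (2.26). Hist1h1b, a linker histone, was at 319 against 0.407 CPM (7.83), and Hist1h2ap at 559 against 2.70 CPM (7.24). Most replication-dependent histone transcripts lack a poly(A) tail and have near-identical copies, so their levels from a kit that primes on poly(A) are uncertain. Stmn1, a microtubule regulator of the spindle list, was in 159 members at 2110 CPM and in 10.1% of the others at 24.2 CPM (6.39).

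Cyclins split by their phase. Of 14 measured cyclins and partner kinases 9 were past 2-fold higher and 1 lower (median 4.99), beside 9.23% and 2.51% of all genes. As 9 of the 14 were measured only through the members, the count describes the list alone. Ccna2, the cyclin of S phase and G2, was in 135 members (73 cells) at 339 CPM against 0.255 CPM (log2 ratio 8.08), Ccnb2 in 131 (71 cells) at 331 against 0.713 CPM (7.60), and Ccnb1 in 70 (43 cells) at 105 against 0.102 CPM (6.59). Cdk1, the kinase they drive, was at 512 against 9.68 CPM (5.59). Ccne2 and Ccne1, cyclins of the entry into S phase, were in 29 and 17 members (19 and 13 cells), at 37.8 against 0.730 CPM (4.49) and 14.2 against 0.170 CPM (3.70). Of the D cyclins, which link growth signals to the cycle, none was past 2-fold higher. Ccnd1 was at 282 against 340 CPM (-0.27), or 2.61 against 1.71 UMIs per barcode, and Ccnd3 at 156 against 116 CPM (0.43). Ccnd2 was 3.24-fold lower, at 167 against 540 CPM (-1.69), and lower per barcode as well, at 1.54 against 2.71 UMIs. In barcodes thinned to 2000 UMIs, Ccnd2 was found in 19.0% of members (11.03 to 29.4) and 60.2% of non-cycling barcodes.

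Several inhibitors of the cycle were higher in the same cells. Of 17 measured inhibitors and p53 targets 7 were past 2-fold higher and 1 lower (median 0.82), beside 9.23% and 2.51% of all genes, and 5 of the 17 were measured only through the members. Cdkn1a, which encodes p21 (chr17:29090976-29100727, plus strand, mm10), was in 141 of 160 members (75 cells) at 712 CPM and in 23.2% of non-cycling barcodes at 107 CPM, 6.66-fold higher (log2 ratio 2.72). Its UMIs per barcode were 6.59 and 0.536. At equal depth it was found in 60.8% of members (49.1 to 71.6) and 13.9% of the others. Cdkn2c, which encodes p18, was in 128 members (69 cells) at 371 against 15.4 CPM (4.50), and Cdkn2d, which encodes p19, in 106 (60 cells) at 190 against 23.6 CPM (2.96). Cdkn2a, whose locus gives both p16 and ARF, was in 66 members (41 cells) at 69.5 against 3.79 CPM (3.88), a ratio that was 3.08 with 5 CPM added. Cdkn3, a phosphatase of cyclin-dependent kinases, was at 130 against 0.407 CPM (6.54). Phlda3, a p53 target, was at 96.5 against 19.5 CPM (2.25), while Mdm2 and Ccng1, also p53 targets, had log2 ratios of 0.42 and 0.50. Cdkn1b, which encodes p27, was at 113 against 67.9 CPM (0.72). Cdkn1c, which encodes p57, was at 53.3 against 110 CPM (-1.03), and its ratio was -0.88 among barcodes with 10 or more UMIs of Clec4g and Stab2.

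Among the transcription factors of the cycle 9 of 14 measured were past 2-fold higher (median 2.79), beside 9.23% of all genes, and 8 of the 14 were measured only through the members. Foxm1 was in 96 members (52 cells) at 147 against 0.696 CPM (6.45), and Mybl2, which encodes B-MYB, in 37 (24 cells) at 29.7 against 0.594 CPM (4.27). The repressor E2f8 was at 58.1 against 0.102 CPM (5.74), E2f2 at 86.4 against 0.441 CPM (5.92) and E2f1, an activator, at 35.1 against 4.69 CPM (2.67). Myc was barely detected, with 9 UMIs in 6 cells (6.08 against 1.95 CPM).

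Within the members, replication and mitosis transcripts were set against each other barcode by barcode. Licensing and fork genes together (replication) had a median of 28.5 UMIs per member, with quartiles of 14 and 57.3 and a highest value of 108. Kinase, kinetochore and spindle genes together (mitosis) had a median of 140, with quartiles of 60.8 and 219 and a highest value of 401. The medians in non-cycling barcodes were 3 and 4. Replication made up a median of 18.03% of the sum (3.86 to 76.1), 11 members from 7 cells had more replication than mitosis UMIs, and 10 from 6 cells had a share between 40% and 60%. The share differed by a median of 1.71 percentage points between the 2 barcodes of a cell (at most 13.1). The share marks a range and not a class of cells. The members were ordered by it and divided into 4 stage groups of 40 barcodes, from mitosis-leaning (group 1, share up to 9.97%) to replication-leaning (group 4, from 28.8%). The groups held barcodes of 22, 25, 25 and 23 cells, and 65 of the 78 pairs fell in 1 group. Depth was alike, with medians of 8968, 8800, 8517 and 8730 UMIs.

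**Figure D3:**
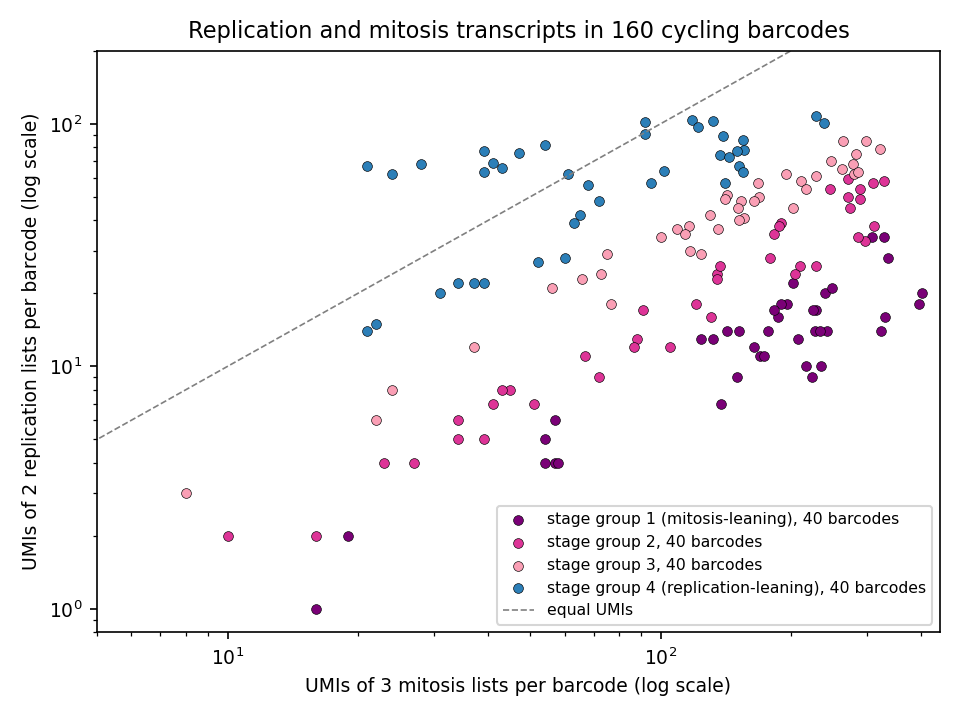
Each point is 1 of the 160 cycling barcodes, which stand for 82 cells, placed by its UMIs of the mitosis lists (horizontal) and of the replication lists (vertical), both on log scales. Colours give the stage group by replication share, and the dashed line marks equal UMIs; 11 barcodes of 7 cells lie above it.

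Genes that did not enter this ordering differed across it. Ccne2 was at 0, 5.57, 13.9 and 140 CPM from group 1 to group 4, and E2f1 at 0, 8.35, 19.4 and 120 CPM, so both were concentrated in the replication-leaning cells. Ccnb1 ran the other way, at 228, 80.7, 74.97 and 17.1 CPM, 13.3-fold higher in group 1 than in group 4 (4.29 to 66.9). Ccnb2 was 3.65-fold higher in group 1 (2.31 to 5.99) and Cdkn3 7.65-fold (3.05 to 24.7). Ccna2 varied less, at 381 CPM in group 1 and 260 in group 4. The core histone Hist1h2ap was at 112, 621, 919 and 651 CPM, lowest in the mitosis-leaning cells. Cdkn1a followed a like order, at 296, 699, 1069 and 848 CPM, and was 2.86-fold higher in group 4 than in group 1 (2.11 to 3.92). Cdkn2c was 2.35-fold higher in group 1 than in group 4 (1.56 to 3.63), and Cdkn2a was lowest in group 1, at 24.3 CPM against 82.8 CPM in group 4. Ccnd2 and Ccnd3 were higher in group 4, by 1.82-fold (1.03 to 3.26) and 2.08-fold (1.19 to 3.71). The antigen presentation and interferon genes were lower toward replication-leaning cells, summing to 129, 122, 108 and 85.1 UMIs per 10000.

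**Figure D4:**
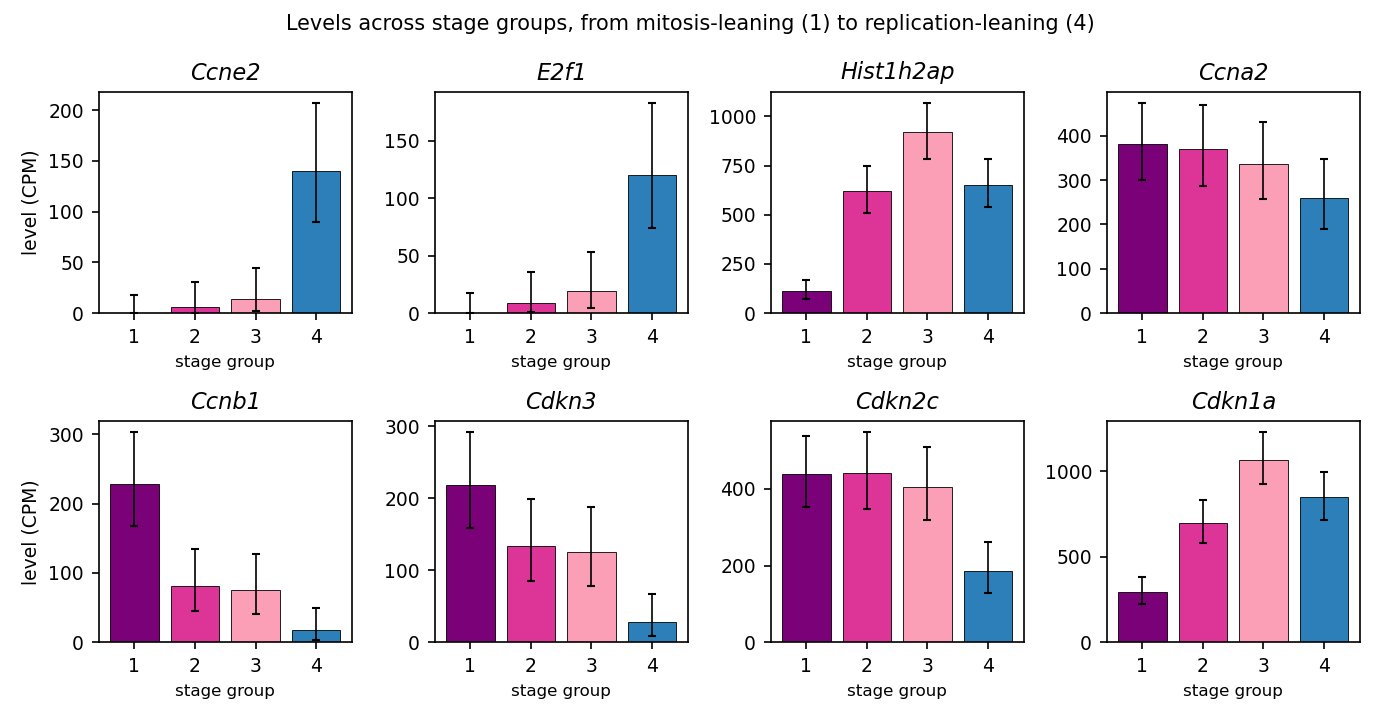
Level in CPM (vertical) of 8 genes in the 4 stage groups of 40 cycling barcodes (horizontal), from mitosis-leaning to replication-leaning. Bars are summed UMIs over the group and whiskers 95% exact Poisson intervals on the mean of the 2 barcode sets, which cover counting error only; Ccne2 and E2f1 peak in group 4, Ccnb1 and Cdkn3 in group 1, and Hist1h2ap and Cdkn1a in group 3.

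Some sinusoidal barcodes outside the members also carried many replication transcripts. A search made after the data were seen found 24 barcodes (16 cells) with at most 2 selection UMIs and at least as many replication UMIs as the median member (28.5). Of these, 12 had 0 selection UMIs, and so are counted among the non-cycling barcodes, and 12 had 1 or 2. For 2 of the 16 cells the other barcode was a member. They had a median of 41.5 replication and 19 mitosis UMIs and 6667 UMIs in all. Ccne1 and Ccne2 stood at 36.3 and 60.5 CPM in them (7.49 to 106 and 19.7 to 141), Ccnb2 at 0 of 165279 UMIs, and Hist1h2ap at 6.05 CPM from 1 UMI. E2f1 was at 157 CPM, Ccnd1 at 811 CPM, and Cdkn1a at 188 CPM, below the 848 CPM of group 4. Members and these barcodes together are 184, or 1.52% of the sinusoidal type. No non-cycling barcode reached the lower quartile of mitosis UMIs of the members (60.8), while 174 reached that of replication UMIs (14). Non-cycling barcodes were chosen for 0 selection UMIs and had a lower median depth, 4523 against 8806 UMIs. The contrast therefore describes the choice.

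Of 24 measured sinusoidal identity genes 0 were past 2-fold higher and 2 lower (median -0.58), beside 9.23% and 2.51% of all genes, and 13 were within 1.5-fold. Clec4g was at 1994 against 3717 CPM (-0.90), which is 18.5 against 18.6 UMIs per barcode, and Stab2, the hyaluronan receptor, at 884 against 1322 CPM (-0.58), or 8.19 against 6.63 UMIs per barcode. Both were part of the selection. Dnase1l3, a secreted nuclease, was at 1811 against 3087 CPM (-0.77), Fcgr2b, an Fc receptor, at 1311 against 2237 CPM (-0.77), and Stab1 at 782 against 1352 CPM (-0.79). Mrc1 was at 1798 against 1908 CPM (-0.09) and Lyve1, another hyaluronan receptor, at 498 against 414 CPM (0.27). Gata4, a transcription factor of sinusoidal identity, was at 215 against 272 CPM (-0.33). The 2 past 2-fold lower were Il1a, a cytokine, at 46.6 against 130 CPM (-1.46), and Cldn5, a tight junction protein, at 504 against 1099 CPM (-1.12). Cldn5 was also lower at equal depth, in 53.8% of members (42.2 to 65.1) against 83.8%. The list as a whole summed to 173 UMIs per barcode in members and 140 in non-cycling barcodes, and to 187 against 280 per 10000.

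Of 21 measured pan-endothelial genes 0 were past 2-fold either way (median -0.25), beside 9.23% higher and 2.51% lower of all genes. Pecam1 was at 639 against 708 CPM (-0.15) and Cdh5, VE-cadherin, at 724 against 862 CPM (-0.25), both used by the rule. Growth factor receptors and ligands had a median of -0.38, with 0 of 29 higher and 1 lower, beside 9.23% and 2.51% of all genes. Kdr, the main VEGF receptor, was at 1941 against 2924 CPM (-0.59), Flt4 at 493 against 802 CPM (-0.70) and Tek, the angiopoietin receptor, at 295 against 464 CPM (-0.65). Per barcode Kdr had 17.98 against 14.7 UMIs. Id1, a BMP target, was at 142 against 222 CPM (-0.65).

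Genes of the portal side of the sinusoid made up a smaller share of UMIs as a list. They summed to 25.3 UMIs per 10000 in members and 43.6 in non-cycling cells, but to 23.5 and 21.85 UMIs per barcode. Members with 6 to 10 selection UMIs had 49.65 per 10000, against 23.6 with 3 to 5 and 22.8 with over 10. Those 18 barcodes include both of the cell with the most hepatocyte and cholangiocyte UMIs. Cholangiocyte markers stood at 17.1 per 10000 in them and at 0.106 with over 10, and hepatocyte markers at 12.6 and 0.524. The part of that cell in the portal sums was not tested. Of 15 measured, 6 were past 2-fold lower and 0 higher (median -0.93), beside 2.51% of all genes, and over the other settings 6 to 9 were lower. Efnb1, an ephrin, was at 155 against 440 CPM (-1.50), and at 1.43 against 2.21 UMIs per barcode. At equal depth it was found in 12.03% of members (5.79 to 21.3) and 43.1% of non-cycling barcodes, and its ratio was -2.49. Mecom, a transcription factor of arterial endothelium, was at 40.5 against 104 CPM (-1.34), Msr1, a scavenger receptor, at 161 against 344 CPM (-1.09) and Ntn4, a netrin, at 165 against 347 CPM (-1.07). Msr1 was at -0.91 in barcodes thinned to 2000 UMIs. Ednrb, the endothelin B receptor, was at 57.4 against 182 CPM (-1.65), with 85 UMIs in 23 members (13 cells), and its ratio was -3.27 without the Scrublet-marked barcodes. Efnb2 was at -0.37, Cd36 at -0.28 and Clu at -0.28.

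Genes of the central side had a median of -0.52, with 0 of 13 measured higher and 1 lower, beside 9.23% and 2.51% of all genes. The lower gene was Dkk3 (8.78 against 21.1 CPM, -1.17). The median of the central list was -0.23 against non-cycling cells of the same depth range, with 0 genes lower. Those cells still had a lower median depth than members. In barcodes thinned to 2000 UMIs the list's median was -1.12, with 8 lower. Wnt2, a WNT ligand for hepatocytes, was at 230 against 380 CPM (-0.73), with 2.13 against 1.91 UMIs per barcode. Kit, a receptor tyrosine kinase of central cells, was at 242 against 299 CPM (-0.31). Rspo3, which strengthens WNT signals, was in 22 members (12 cells) at 80.3 against 106 CPM (-0.39), and its sign changed with the setting (-1.06 to 0.15). Within the members, Rspo3 was 4.85-fold higher in group 4 than in group 1 (2.197 to 12.2), Wnt2 1.87-fold (1.21 to 2.93) and Kit 1.82-fold (1.15 to 2.91), whereas Ednrb was 21.3-fold higher in group 1 than in group 4 (3.48 to 873). As many as 49 of the 119 UMIs of Rspo3 and 24 of the 85 of Ednrb came from 1 cell, so counting intervals understate their spread.

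**Figure D5:**
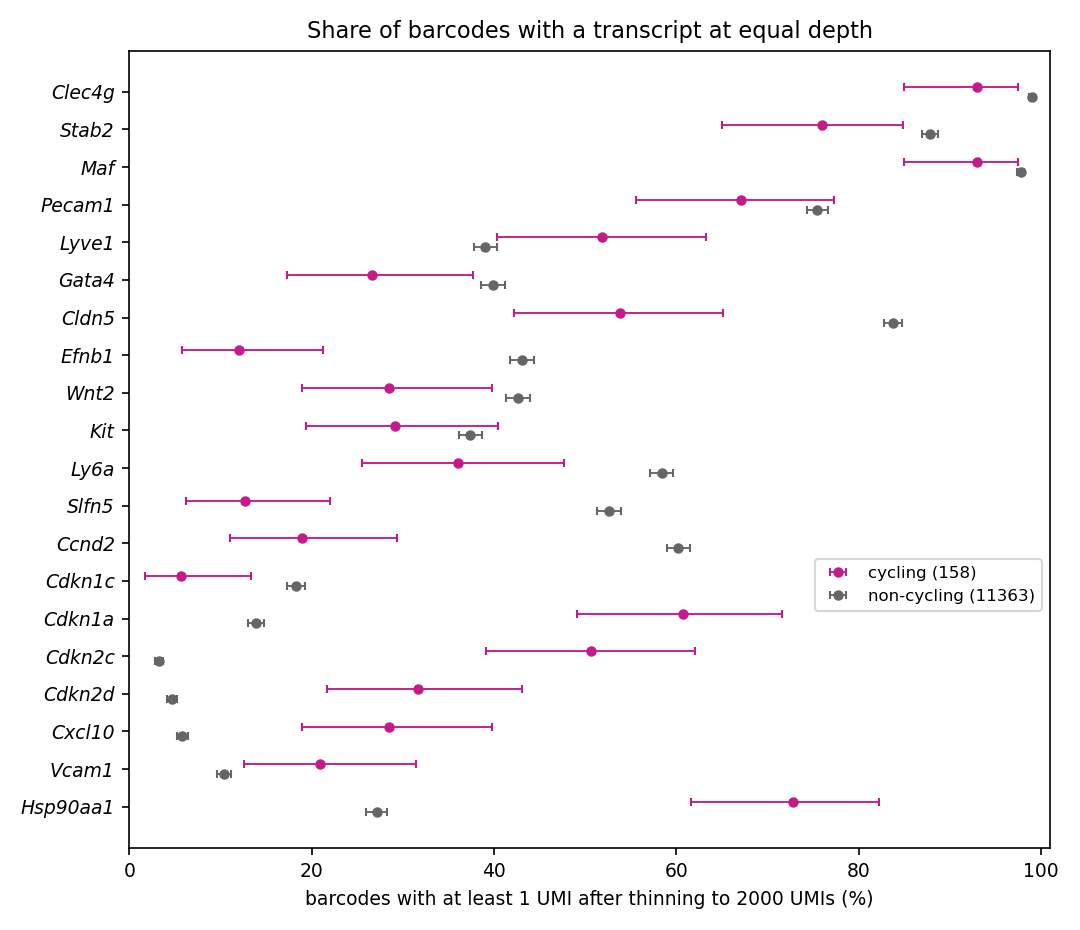
Share of barcodes with at least 1 UMI of a gene after each was thinned to 2000 UMIs, in percent, for 158 cycling and 11363 non-cycling barcodes, with 95% exact Clopper-Pearson whiskers on the counts divided by the 2 barcode sets. Cldn5, Efnb1, Ly6a, Slfn5 and Ccnd2 are less frequent in cycling cells, and Cdkn1a, Cdkn2c, Cdkn2d, Cxcl10, Vcam1 and Hsp90aa1 more frequent.

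Of 20 genes of continuous and large-vessel endothelium 8 were measured, 1 past 2-fold higher and 2 lower (median -0.10). Over all measured genes the shares were 9.23% and 2.51%. Vcam1, a leukocyte adhesion molecule, was in 100 members (58 cells) at 150 against 66.6 CPM (1.16). It was at 128.5 CPM in barcodes with 1 selection UMI and at 50.4 CPM in those with 2. Ly6a, which encodes the surface antigen SCA-1, was at 336 against 1129 CPM (-1.75), and at 3.11 against 5.66 UMIs per barcode; without the Scrublet-marked barcodes its ratio was -2.41. Vwf, the von Willebrand factor gene, was at 14.2 against 48.4 CPM (-1.70) from 21 UMIs in 4 cells, 16 of them in 1 cell, and its ratio was -0.88 among barcodes with 10 or more UMIs of Clec4g and Stab2 and -3.54 without the droplets that Scrublet marked on the first barcode set. Cd34 was at 27.0 against 26.2 CPM.

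Among genes of antigen presentation and interferon response 5 of 21 measured were past 2-fold higher and 0 lower (median 0.54), beside 9.23% and 2.51% of all genes, and 2 of the 21 were measured only through the members. Cxcl10, a chemokine induced by interferon gamma, was in 90 of 160 members (51 cells) at 259 CPM and in 10.6% of non-cycling barcodes at 74.99 CPM (1.77). At equal depth it was found in 28.5% of members (18.9 to 39.8) and 5.81% of the others. Its log2 ratio was 1.52 against non-cycling cells of the same depth range. A high level was not particular to members, since Cxcl10 was at 329 CPM in barcodes with 1 selection UMI. In those with 2 it was at 94.5 CPM. Tap1, the peptide transporter, was at 142 against 59.97 CPM (1.23) and Psmb9, an immunoproteasome subunit, at 265 against 115 CPM (1.19), though at 0.94 in thinned barcodes. Ifi27l2a was at 43.2 against 9.90 CPM (2.02) and was found in 18 members (12 cells). In barcodes with 1 selection UMI, Ifi27l2a was at 32.1 CPM, Psmb9 at 145 CPM and Tap1 at 53.2 CPM. The fifth was Cd74, the invariant chain, at 24.3 against 10.4 CPM (1.15) in 6 cells, with 17 of its 36 UMIs in 1 of them. H2-K1, a class I heavy chain, was at 2944 against 1847 CPM (0.67) and B2m at 2990 against 2412 CPM (0.31).

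Metabolic and stress genes differed less, and their counts stand beside 9.23% higher and 2.51% lower of all genes. Of 15 measured genes of ribosome making, nucleotide supply and related synthesis 3 were past 2-fold higher (median 0.30): Mthfd2, a mitochondrial folate enzyme, at 48.6 against 2.16 CPM (3.97), Nop58 at 68.9 against 29.1 CPM (1.21) and Nop56 at 81.0 against 35.3 CPM (1.18), both of which guide ribosomal RNA modification. None of the 18 respiratory chain genes passed 2-fold (median 0.13), nor did any of 23 lysosome and scavenging genes (-0.24). In glycolysis, with 14 genes measured (-0.20), Tpi1 was at 133 against 65.8 CPM, Gapdh at 639 against 320 CPM (0.99) and Aldoa at 47.9 against 176 CPM (-1.86). A second gene model in the matrix carries the symbol Aldoa, with 0 and 4 UMIs. Hsp90aa1, the inducible HSP90 chaperone, was the 1 of 18 immediate early and heat shock genes past 2-fold (515 against 168 CPM, 1.61), and it was found at equal depth in 72.8% of members and 27.1% of the others. The 6 measured Gimap genes had a median of -0.00 and 0 past 2-fold, and Gimap5 itself was at 81.7 against 105 CPM (-0.36). These levels do not separate the mutant from the normal allele of the heterozygous mouse.

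Most of the 15 genes with the lowest ratios were rare in non-cycling barcodes. Slfn5, a Schlafen family gene (chr11:82951349-82964840, plus strand, mm10), was widespread, at 98.6 against 405 CPM (-2.03), in 60 members (37 cells) and in 76.4% of non-cycling barcodes. At equal depth the shares were 12.7% (6.24 to 22.1) and 52.6%. Aldoa, the glycolytic aldolase given above, was also among the lowest and was found in 53.7% of non-cycling barcodes. Igfbp5 (1 UMI in members, log2 ratio -4.01) and C3 (5 UMIs, -3.06) were carried by few non-cycling barcodes, 1.62% and 2.83%. The ratio of Igfbp5 was -2.45 with 5 CPM added, and that of C3 -1.03 without barcodes that carried markers of other types. Apoa2, a hepatocyte transcript found in 7.46% of non-cycling barcodes, was at -2.30, and at -0.93 without those barcodes. Ctsf (-2.54), Slc45a4 (-2.38), Eva1c (-2.23) and L3mbtl3 (-2.03) each had between 5 and 7 UMIs in members.

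The same rule without the sinusoidal condition was applied to both libraries. In the sph/+ library 162 of 12115 endothelial barcodes (1.34%, 1.06 to 1.66) had at least 3 selection UMIs, and in the sph/sph library 945 of 12911 (7.32%, 6.696 to 7.98). These are 83 of 6139 and 513 of 6564 cells. At 2000 UMIs per barcode the shares were 1.13% (0.872 to 1.43) and 5.15% (4.61 to 5.75). No test was possible with 1 mouse each, and 0 of the 82 member cells had a barcode sequence that also occurs in the other library, which shares 17 sequences in all. Only 46 of the 945 sph/sph barcodes (26 cells) had 2 or more UMIs of Clec4g and Stab2, out of 913 endothelial barcodes that did (5.04%). Per 10000 UMIs, the spindle genes stood at 97.9 in the 160 sph/+ members and 54.5 in the 945 sph/sph cycling barcodes, and kinetochore genes at 30.8 and 21.8. Licensing genes stood at 13.6 and 11.1, and fork genes at 26.0 and 21.5. The 160 met the sinusoidal condition and the 945 did not have to. In the 46 sph/sph barcodes that met it, spindle genes stood at 42.9, kinetochore genes at 16.3, licensing genes at 11.8 and fork genes at 21.9. More than 25% of the staged UMIs were replication UMIs in 49 of 160 (30.6%, 20.8 to 41.9) and 402 of 945 barcodes (42.5%, 38.03 to 47.1). Between the 160 and the 945, median depth was 8806 and 5326 UMIs and the median of selection UMIs 36 and 10. Erythroid markers summed to 0.243 and 40.8 per 10000, so the cells compared also differ in these. Their part in the differences was not tested.

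The inhibitors are set here beside the non-cycling cells of the same library, which were the sinusoidal cells in sph/+ and the endothelial cells with 0 selection UMIs in sph/sph. Cdkn1a was at 712 against 107 CPM in sph/+ and at 444 against 362 CPM in sph/sph, and Cdkn2a at 69.5 against 3.79 CPM and at 57.6 against 37.7 CPM. Both had higher levels in the non-cycling cells of sph/sph. Cdkn2d was 8.05-fold and 10.7-fold higher in cycling cells, and Cdkn2c 24.1-fold and 9.41-fold. Cxcl10 was at 259 against 74.99 CPM and at 634 against 545 CPM. Slfn5 was lower in cycling cells of both, at 98.6 against 405 CPM and at 251 against 712 CPM, and so was Cdkn1c, at 53.3 against 110 CPM and 20.8 against 52.5 CPM. Ccnd1 differed little within each library but was at 282 CPM in sph/+ cycling cells and 1064 CPM in sph/sph cycling cells.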

How the data were processed

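Single-cell transcript counts were analysed for 2 libraries, 1 per genotype, from sorted liver endothelial cells. The deposited values are raw counts of UMIs per gene and barcode over 31053 genes, with no normalization, and only barcodes called as cells by the authors are in them. Per the submitters' processing notes the tool was Cell Ranger 3.0 and the genome build mm10; per the file headers the software version was 3.1.0. Neither an annotation release nor a strand setting is named in the sources used here. The sph/+ library held 13136 barcodes with 64460283 UMIs, of which 12304 barcodes passed the quality limits. These are 2 suffix sets of 6409 and 6727 barcodes that together hold 6745 droplets, 6391 of them in both, and the sph/sph library likewise holds 8657 droplets in 16386 barcodes, so each UMI total counts a cell in both sets.

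UMIs were summed over the 160 members (1481443 UMIs) and over the 11751 non-cycling barcodes, and expressed in CPM of all UMIs. Genes that reached 20 CPM in either sum counted as measured. Log2 ratios were taken after adding 1 CPM, and 2-fold was the call. With 1 library there is no test. Levels sum both sets, and intervals use counts divided by 2, that is, the mean of the sets. Intervals are 95% exact Poisson intervals for counts, Clopper-Pearson for shares and the conditional binomial interval for ratios; they cover counting error only, and cells of 1 mouse are not replicates. Free RNA in droplets adds UMIs to all cells and was not removed. Scrublet, as part of scanpy 1.11.5, scored likely doublets, which were kept, except in the alternative that leaves them out. Thinning to 2000 UMIs was without replacement, with shallower cells left out (2 members and 388 non-cycling barcodes). The procedure was tested on simulated data. Python 3.11.15, numpy 2.4.6, scipy 1.17.1 and pandas 2.3.3 were used.

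The members and gene lists were chosen with earlier results of these data known. Named genes are the 15 highest and 15 lowest ratios, leaving out selection, mitochondrial, ribosomal, haemoglobin, sex-linked and unnamed genes and other cell types' markers, up to 4 genes per list by size of ratio, and a set of genes named whatever their values. Other genes given as examples of a list were chosen after their values were seen. Some genes the rule names are not reported here.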

Additional observations from a re-analysis of the deposited data

How the results depend on the processing

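No paired analysis was possible because each genotype has 1 library and no result comes from a test. Of 150 named genes under 22 other settings, 3 of them chosen after seeing the data,, none changed sign among the 98 past 2-fold, and 10 of these fell under 2-fold in at least 1 setting: Abhd18, Apoa2, Cdkn1c, Dkk3, Jag1, Msr1, Myc, Psmb9, Tpi1 and Vwf. Cd34, Rspo3 and Tfam, none past 2-fold, changed sign. Leaving out barcodes with markers of other cell types kept 103 members and gave 323 lower genes instead of 188. The number of genes at least 2-fold higher was 452 with a floor of 50 CPM and 1238 with no floor, instead of 690. The number at least 2-fold lower was 437 with a floor of 5 CPM, 84 with a floor of 50 CPM, 876 with no floor, 119 with 5 CPM added and 475 in barcodes thinned to 2000 UMIs. Either barcode set alone kept 80 members, since 78 cells met the rule in both sets and 4 in 1 set only. With either set alone 708 and 688 genes were higher and 209 and 219 lower. Leaving out droplets marked by Scrublet on 1 set kept 144 members. On the first set alone the log2 ratio was 2.94 for Ccne1, -3.86 for C3 and -0.89 for Dkk3, and on the second 0.88 for Tpi1. The cause was not tested, except that a floor sets how many genes enter. With 1481443 UMIs in the members, 1 UMI is 0.675 CPM, so low genes rest on few molecules.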

Other observations

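Genes in none of the lists were ranked by the same ratio, and those named here were chosen after their values were seen. The highest beyond the genes already named were Lockd, a noncoding RNA downstream of Cdkn1b (log2 ratio 7.43, in 122 members from 71 cells), Iqgap3, a scaffold protein (7.36, 121 members, 66 cells), Mxd3, a MAX-binding factor (7.18, 99 members, 58 cells), and Gas2l3, which links actin and microtubules (6.91, 89 members, 48 cells). Neil3, a DNA glycosylase, was at 6.87, Knstrn, a spindle protein, at 6.86, and Sgo2a, a protector of centromeric cohesion, at 6.82. Pclaf, a PCNA partner, was at 250 against 1.82 CPM (6.48). Lockd was at 221 against 0.289 CPM, whereas its neighbour Cdkn1b was at 113 against 67.9 CPM.

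Among the lower genes in none of the lists, Gja4, a gap junction protein of arterial endothelium, was at 99.9 against 315 CPM (-1.65) and was found in 57 members (34 cells) and 62.0% of non-cycling barcodes. Vsir, an immune checkpoint ligand, was at 48.6 against 155 CPM (-1.65), Calml4 at 32.4 against 109 CPM (-1.72) and Arl4d at 27.0 against 87.1 CPM (-1.65). Edn1, endothelin 1, was at 7.43 against 25.4 CPM (-1.65), from 11 UMIs, all in 1 cell. Kdm5b, a histone demethylase, was at 16.2 against 55.5 CPM (-1.72), and Ddit4, a stress-induced inhibitor of mTORC1, at 12.8 against 43.0 CPM (-1.67).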
